A study of Mus musculus with 15 samples.

Results

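The genes described here encode the enzymes and transporters that take glucose to lactate or into the mitochondrion, together with the pentose phosphate branch and the transcription factor subunit Hif1a. The set was given as a list of 34 genes, and a gene was measured when a transcript cluster of the array named that gene alone. When several clusters named a gene, the brightest was used. In this way 31 of the 34 genes were measured, among 19752 genes in all. Gpi1, G6pdx and Mpc2 were not analysed here, so the second step of glycolysis and the entry step of the pentose phosphate pathway have no value.

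Glycolysis splits glucose into pyruvate, and its lower part, from triose phosphate to pyruvate, yields ATP and NADH. Lactate dehydrogenase then turns pyruvate into lactate, or the pyruvate dehydrogenase complex passes it to the tricarboxylic acid cycle. The pentose phosphate pathway branches off at glucose 6-phosphate and makes NADPH and ribose. In T cells the pathway is known to rise on activation under mTOR, Myc and Hif1a, and regulatory T cells (Treg) are known to depend on it less than conventional effector T cells do. In the Notch pathway, the cleaved intracellular part of the receptor binds the DNA-binding protein RBPJ and turns on genes there, while RBPJ without it can hold genes down.

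The cells were Treg of the spleen of male mice 6 weeks of age, sorted as CD3, TCRbeta, CD4 and GFP (Foxp3) positive and negative for CD8, B220, CD11b, CD11c and Gr1. Each of the 15 samples was RNA from 40000 to 50000 cells, sorted from a pool of mice, on an Affymetrix Mouse Gene 1.0 ST array, which reads many probes along each transcript. All groups carried the Foxp3EGFPcre allele, so Cre recombinase was driven from Foxp3, and only Foxp3-expressing cells were meant to be altered. The label Foxp3EGFPCre alone marked 4 arrays, called control below. Foxp3EGFPCreR26N1c/N1c marked 4 arrays with homozygous N1c, an intracellular Notch1 from the Rosa26 locus (N1c below). Foxp3EGFPCreRBPJ∆/∆ marked 4 arrays in which the RBPJfl/fl alleles were deleted (RBPJdel), and Foxp3EGFPCreR26N1c/N1cRBPJ∆/∆ marked 3 arrays with both changes (N1c_RBPJdel). A FACSAria sorter was used for N1c_RBPJdel and a MoFlo for the other 3 groups. In comparisons with N1c_RBPJdel, sorter and genotype therefore cannot be told apart.

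The values are intensities on a linear scale, and differences below are differences of mean log2 intensity ± standard error, tested with limma across all genes and adjusted by the Benjamini-Hochberg method. A gene is called higher or lower when its adjusted p is under 0.05. Array medians lay between 107.1 and 117.2. Rbpj had a mean of 497 in control and 521 in N1c, against 267 in RBPJdel and 209 in N1c_RBPJdel. The groups with and without the deletion did not overlap. Foxp3, Il2ra and Cd3e were at or above the 99.7th percentile of genes. Of 9 measured Treg markers, 1 was called lower in N1c against control (0.714% of all genes), namely Nrp1 (-1.56, adjusted p 4.17e-07). In N1c_RBPJdel against N1c 2 were called higher (4.58% of all genes), Nrp1 (1.55, adjusted p 1e-06) and Tnfrsf18 (0.52, adjusted p 0.0159). Notch1 did not separate the arrays carrying N1c from the others. Its range with N1c alone, 1020 to 1582 (mean 1252), overlapped the control range of 836 to 1443 (mean 1227). With both changes its mean was 1008, below the 1326 of RBPJdel. The Notch1 level therefore gave no check of the N1c label. Levels of a bulk sample cannot separate fewer cells of a type from less RNA per cell. Because the labels do not give separate cultures or animals for each array, the p-values reflect only how far arrays of pooled animals differ, which may be technical. Judged by the order of the cluster numbers, the clusters used for Pgk1, Pgam1, Ldhb and Mpc1 lie among those of another chromosome than the gene, so these 4 values may come from near-identical copies. For the first 3 a second cluster existed, and using it changed no call among the 31 genes.

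Promoters of the genes on which the results turn are printed first. Of these genes 2 encode enolases that moved together, and Tpi1 is a near neighbour of Eno2 on the genome. Each window runs from 250 bases before the transcription start to 50 after it, 5′ to 3′ on the strand of the gene, from RefSeq on GRCm38.p6. Capitals mark TGGGAA, the core bound by RBPJ, and ACGTG, a core bound by the Hif1a dimer, on either strand (TTCCCA and CACGT). The palindrome CACGTG counts on both strands and is also an E-box.
Eno2, chr6:124769624-124769923, minus strand: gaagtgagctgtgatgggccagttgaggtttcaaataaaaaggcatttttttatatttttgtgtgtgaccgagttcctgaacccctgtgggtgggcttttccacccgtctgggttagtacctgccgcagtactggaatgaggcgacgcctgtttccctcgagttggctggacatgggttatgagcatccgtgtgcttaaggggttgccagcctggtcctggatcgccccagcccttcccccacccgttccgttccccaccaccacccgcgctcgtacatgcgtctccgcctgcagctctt
Eno3, chr11:70656926-70657225, plus strand: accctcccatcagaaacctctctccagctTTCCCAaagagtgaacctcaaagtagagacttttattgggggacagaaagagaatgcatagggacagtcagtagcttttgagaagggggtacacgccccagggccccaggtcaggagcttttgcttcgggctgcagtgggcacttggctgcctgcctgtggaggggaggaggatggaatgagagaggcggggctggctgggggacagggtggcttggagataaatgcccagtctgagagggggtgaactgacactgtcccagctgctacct
Tpi1, chr6:124814109-124814408, minus strand: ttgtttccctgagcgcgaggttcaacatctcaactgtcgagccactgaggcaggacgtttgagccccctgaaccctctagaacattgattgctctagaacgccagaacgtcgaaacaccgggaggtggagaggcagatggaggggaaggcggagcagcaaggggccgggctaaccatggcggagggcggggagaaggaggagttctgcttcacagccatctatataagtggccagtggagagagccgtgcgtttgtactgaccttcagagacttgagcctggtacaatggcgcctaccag
Pfkfb3, chr2:11553880-11554179, minus strand: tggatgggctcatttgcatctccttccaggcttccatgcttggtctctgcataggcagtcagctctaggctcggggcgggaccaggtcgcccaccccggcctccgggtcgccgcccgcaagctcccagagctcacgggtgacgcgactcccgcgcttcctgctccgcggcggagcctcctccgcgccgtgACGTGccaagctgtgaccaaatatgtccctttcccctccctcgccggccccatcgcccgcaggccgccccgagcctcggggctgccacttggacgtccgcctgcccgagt
Pfkfb3, second start, chr2:11502041-11502340, minus strand: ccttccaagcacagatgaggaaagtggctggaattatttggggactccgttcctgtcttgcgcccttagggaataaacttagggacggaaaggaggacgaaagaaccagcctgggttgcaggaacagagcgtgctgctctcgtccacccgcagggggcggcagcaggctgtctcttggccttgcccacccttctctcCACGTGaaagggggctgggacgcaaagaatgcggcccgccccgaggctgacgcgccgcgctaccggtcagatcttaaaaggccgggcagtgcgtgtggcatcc
In the Eno3 window, TTCCCA began at base -221 from the start, and no ACGTG was there. This start lies inside the gene, which begins upstream at base 70653125, where no window was printed. The Eno2 and Tpi1 windows held neither motif. The first Pfkfb3 window held ACGTG at base -60 and the second held CACGTG, counted as 2 matches. Over the 33 listed genes with a window, TGGGAA was present in 7 of 47 windows (14.9%), against 25.6% of all 32851 windows of the same length. ACGTG was present in 21 of the 47 windows (44.7%), from 18 genes, against 19.6% of all windows. A match is a description of these letters and not a bound site.

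The comparison of N1c with control asks what active Notch1 changes in Treg that still have RBPJ. Of the 31 genes, 2 were lower and 0 were higher, and both were enolases, which turn 2-phosphoglycerate into phosphoenolpyruvate. Over all genes, 1.65% were called in this comparison (0.937% higher and 0.714% lower), and the median change of the 31 genes was -0.10 against -0.01 over all genes. At an unadjusted p under 0.05, 3 were higher and 3 lower, when 8.21% of all genes passed. Eno1, the isoform that most cells use, was not analysed here.

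Eno3, the muscle-type enolase, had intensities of 647, 595, 538 and 457 in the control arrays and 343, 316, 383 and 270 in the N1c arrays. All 4 N1c arrays were below all 4 control arrays. The change was -0.77 ± 0.13 on the log2 scale, 1.7-fold lower, with an adjusted p of 0.00334. It remained called under all 27 alternatives tried. In RBPJdel the values were 566, 598, 505 and 503, and in N1c_RBPJdel 559, 643 and 456. Both groups overlapped with control and lay wholly above N1c.

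Eno2, the neuron-type enolase, is dimmer than the median gene of the array. Its values were 93.8, 96.0, 93.4 and 90.7 in control and 71.8, 64.3, 72.7 and 67.9 in N1c, again with no overlap. The change was -0.44 ± 0.10, 1.35-fold lower, with an adjusted p of 0.0376. This call was narrow. In N1c and control the same array numbers deviated together, and with the number as a block the change was -0.43 with an adjusted p of 0.0618 over all groups, and -0.44 with 0.0588 in N1c and control alone. It was also lost on leaving out any 1 of the N1c or control arrays, RBPJdel 1 or RBPJdel 3, with adjusted p up to 0.128, while the change itself stayed between -0.47 and -0.40. In RBPJdel the Eno2 values were 91.5, 102, 98.4 and 78.2, and in N1c_RBPJdel 99.5, 129 and 101, so that the 4 N1c arrays were the lowest of the 15.

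**Figure D1:**
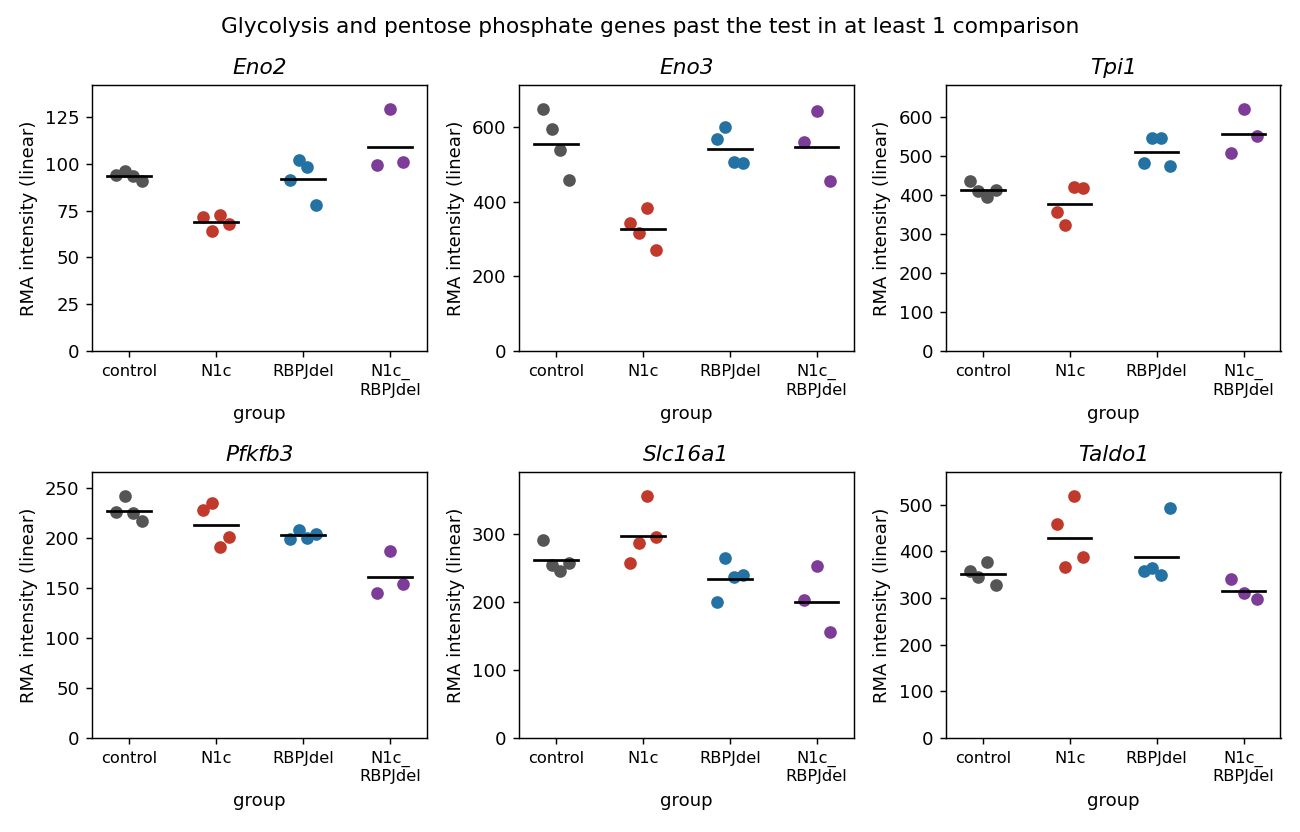
Linear RMA intensity (y axis) of the 6 genes called in at least 1 comparison, by group (x axis). Points are arrays and bars are geometric means of 4 arrays, or of 3 in N1c_RBPJdel. Eno2 and Eno3 are lowest in the N1c arrays, and Pfkfb3 is lowest in N1c_RBPJdel.

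Gapdh, which comes before Pgk1, was not analysed here, and none of the other measured enzymes from triose phosphate to pyruvate was called in N1c. Pgk1, which makes the first ATP of the lower part, had values of 748, 704, 769 and 625 in control and 811, 823, 934 and 865 in N1c. The groups did not overlap, but the change of 0.27 ± 0.11 had an adjusted p of 0.374. Taldo1, the transaldolase of the pentose phosphate pathway, differed by 0.29 ± 0.12 with an adjusted p of 0.496. Pgam1, the mutase before enolase, differed by 0.37 ± 0.17 with an adjusted p of 0.546. In all, 4 of the 31 genes (12.9%) had groups that did not overlap, namely Eno2, Eno3, Pgk1 and Hif1a, against 5.73% of all genes. Hif1a differed by only -0.09.

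Deletion of RBPJ alone addresses whether the genes depend on RBPJ in Treg without added Notch1. None of the 31 genes was called between RBPJdel and control in the limma fit, where 0.111% of all genes were (0.0354% higher and 0.0759% lower). At an unadjusted p under 0.05, 5 passed, all of them higher in RBPJdel. Over all 19752 genes 6.74% passed in either direction, 520 genes higher and 811 lower. No alternative called any of the 31. The median change was 0.05 against 0.03 over all genes. The smallest p belonged to Tpi1, the triose phosphate isomerase, with 435, 411, 394 and 413 in control and 483, 546, 545 and 475 in RBPJdel. Its groups did not overlap, and the change was 0.31 ± 0.10 with an adjusted p of 0.53.

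Aldoc, a fructose bisphosphate aldolase, had 119, 139, 108 and 143 in control and 132, 152, 163 and 171 in RBPJdel, which overlapped. Its change was 0.28 ± 0.11 with an adjusted p of 0.63. The other aldolase of the list, Aldoa, had 1853, 1793, 1837 and 1313 in control and 2006, 2214, 1982 and 2239 in RBPJdel. These groups did not overlap, but control 5 was far below the other control arrays, and the change of 0.32 ± 0.15 had an adjusted p of 0.726. Pgk1 differed by 0.26 ± 0.11 with an adjusted p of 0.647, from 778, 834, 785 and 1031 in RBPJdel. In this comparison 4 of the 31 genes (12.9%) did not overlap, the same share as in N1c, against 5.89% of all genes. They were Aldoa, Tpi1, Pgk1 and Pfkfb3, of which Pfkfb3 was the lower one.

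Deleting RBPJ in cells with active Notch1 asks which values of N1c need RBPJ. Between N1c_RBPJdel and N1c, 3 of the 31 genes were higher and 3 lower, when 9.23% of all genes were called (4.58% higher and 4.65% lower). Higher were both enolases and Tpi1, all of the lower part of glycolysis. The other measured genes of that part were below 0 and not called, namely Pgk1 (-0.21, without overlap), Pgam1 (-0.06) and Pkm (-0.06). Lower were the regulator Pfkfb3, the lactate transporter Slc16a1 and the transaldolase Taldo1. The N1c arrays enter this comparison as well as that with control, so a low value in N1c makes the change from control more negative and the change to N1c_RBPJdel more positive, and the 2 are not independent of each other.

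Eno2 was higher in N1c_RBPJdel than in N1c by 0.66 ± 0.11 with an adjusted p of 0.00156, and Eno3 by 0.75 ± 0.14 with an adjusted p of 0.00433. The values given above did not overlap for either gene. Both stayed called under every alternative in which they were tested, 25 for Eno2 and 26 for Eno3. Tpi1 had 357, 323, 421 and 417 in N1c and 507, 620 and 550 in N1c_RBPJdel. All 3 N1c_RBPJdel arrays were above all N1c arrays, and the change was 0.56 ± 0.11 with an adjusted p of 0.00495. Tpi1 was also above the control range on every N1c_RBPJdel array, as was Eno2 but not Eno3. Eno2 and Tpi1 are near neighbours on chromosome 6, with 1 protein-coding gene, Lrrc23, between them, whereas Eno3 is on chromosome 11.

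Pfkfb3 makes fructose 2,6-bisphosphate, the strongest known activator of phosphofructokinase. Its values were 226, 242, 225 and 217 in control, 228, 235, 191 and 201 in N1c, 199, 208, 200 and 204 in RBPJdel, and 145, 187 and 154 in N1c_RBPJdel. The last group was below every other array. Against N1c the change was -0.41 ± 0.10 with an adjusted p of 0.0221. The call was lost when N1c_RBPJdel 1, N1c_RBPJdel 3, N1c 1 or N1c 2 was left out, with adjusted p up to 0.137.

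Slc16a1 is the monocarboxylate transporter MCT1, which carries lactate across the membrane. It had 258, 287, 356 and 295 in N1c and 203, 253 and 156 in N1c_RBPJdel, with no overlap. The change was -0.57 ± 0.15 with an adjusted p of 0.0231, and it was no longer called without N1c_RBPJdel 1, N1c_RBPJdel 3 or N1c 4 (adjusted p up to 0.106). Control, with 291, 254, 245 and 258, and RBPJdel, with 200, 264, 237 and 240, had means of 262 and 234, between those of N1c (297) and N1c_RBPJdel (200). The second lactate transporter, Slc16a3, differed by 0.03 in the same comparison.

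Taldo1 had 459, 367, 519 and 388 in N1c and 341, 311 and 297 in N1c_RBPJdel. The change was -0.44 ± 0.13 with an adjusted p of 0.0461. It was lost in 16 of 26 alternatives, so this gene stands at the threshold. Control values of 357, 346, 377 and 329 overlapped with both groups. In RBPJdel, 359, 365 and 349 were close together and RBPJdel 4 was high at 492.

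Over the 31 genes, 10 were higher and 21 lower in N1c_RBPJdel than in N1c by estimate, with a median of -0.10 against 0.02 over all genes, but under quantile or cyclic loess normalization 18 were higher and the median was 0.03 or 0.02. With either of these scalings 4 were called higher and 2 lower in place of 3 and 3, since Ldhb was added and Taldo1 lost. The groups did not overlap for 8 genes (25.8%), against 16.4% of all genes. When only the 7 arrays compared were fitted, the enolases alone stayed called.

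**Figure D2:**
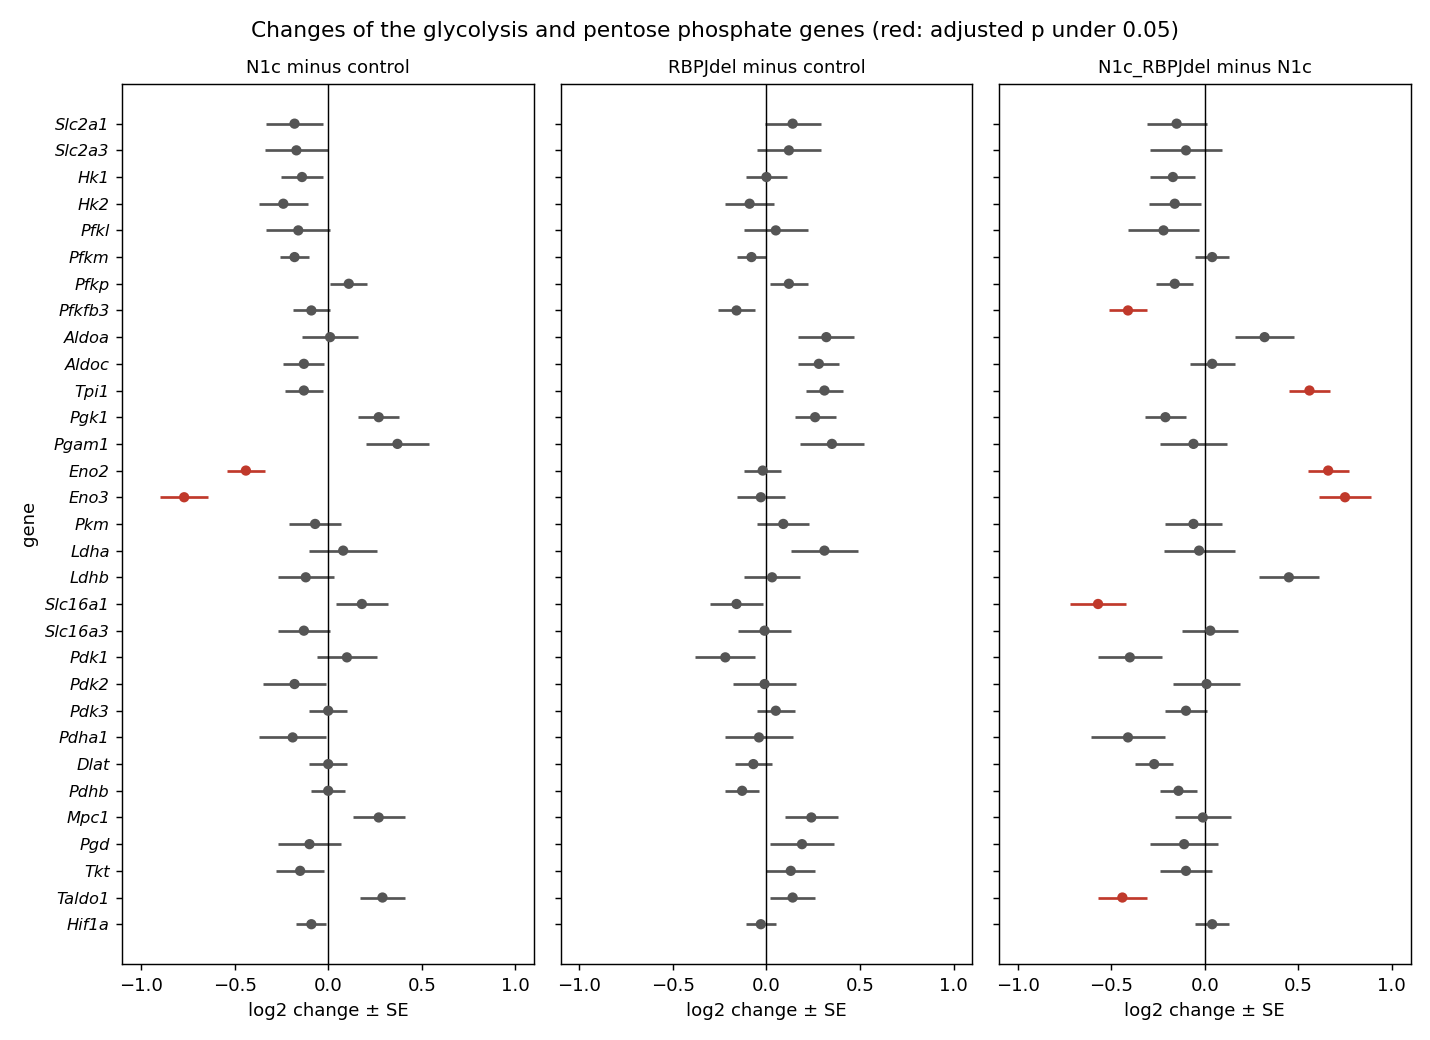
Log2 change ± SE (x axis) of the 31 genes (y axis) in 3 comparisons, with red for an adjusted p under 0.05. Eno2 and Eno3 are at -0.44 and -0.77 in N1c minus control, near 0 in RBPJdel minus control, and at 0.66 and 0.75 in N1c_RBPJdel minus N1c.

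Setting N1c_RBPJdel against control shows what is left of both changes together. Among the 31 genes, 1 was higher and 1 was lower, while 8.9% of all genes were called (3.77% higher and 5.12% lower). Pfkfb3 was lower by 0.50 on the log2 scale (-0.50 ± 0.10, adjusted p 0.0105), and Tpi1 was higher by 0.43 ± 0.11 with an adjusted p of 0.0247. Tpi1 lost its call with array weights (0.0615) and without N1c_RBPJdel 2, control 3 or control 4, with adjusted p up to 0.065. Pfkfb3 lost it without N1c_RBPJdel 1, with an adjusted p of 0.0549. Neither was called when only these 7 arrays were fitted, with adjusted p of 0.0555 for Pfkfb3 and 0.0641 for Tpi1.

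The third smallest p was that of Pdha1, the catalytic subunit of pyruvate dehydrogenase. It had 960, 832, 836 and 614 in control, 737, 921, 747 and 478 in N1c, 658, 890, 747 and 833 in RBPJdel, and 546, 629 and 428 in N1c_RBPJdel. The difference of -0.60 ± 0.20 from control had an adjusted p of 0.0635. It was called with array weights (0.0286), with the replicate block (0.00164), without N1c_RBPJdel 2 (0.0359), without N1c 5 (0.0284) and without control 5 (0.0277). The block follows no pairing here, since the array numbers of N1c_RBPJdel pair with none of the other groups. The 2 lowest values outside N1c_RBPJdel were both on arrays numbered 5. Dlat, another subunit of the complex, had 320, 324, 321 and 299 in control and 214, 287 and 289 in N1c_RBPJdel, without overlap and without a call.

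Against RBPJdel, the comparison that shows N1c in cells that lack RBPJ, none of the 31 genes was called in N1c_RBPJdel by limma, when 2.29% of all genes were (1.32% higher and 0.967% lower). At an unadjusted p under 0.05, 10 were lower and 1 was higher, 11 in all (35.5%). Over all genes 21.2% passed in either direction, 2187 genes lower and 2008 higher. The median was -0.20 against -0.01, but -0.09 under quantile and -0.07 under cyclic loess normalization, and between -0.29 and -0.07 over all alternatives. By estimate 6 of the 31 were higher, and 10 under either of these normalizations. Pfkfb3 came first with -0.33 ± 0.10 and an adjusted p of 0.0892. Aldoc followed with 115, 135 and 109 in N1c_RBPJdel, a difference of -0.37 ± 0.12 with an adjusted p of 0.0962. The glucose transporter Slc2a1 had 1130, 1245, 976 and 911 in RBPJdel and 752, 1007 and 586 in N1c_RBPJdel. Its difference was -0.47 ± 0.16 with an adjusted p of 0.108, and its groups overlapped.

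The counts moved with the arrays and the fit. Without N1c_RBPJdel 2, 7 of the 31 genes were lower than in RBPJdel (Slc2a1, Hk1, Pfkfb3, Aldoc, Pdk2, Pgd and Tkt), when the calls over all genes rose from 2.29% to 9.57%. Without the same array 8 were lower than in control (Slc2a1, Hk1, Hk2, Pfkfb3, Slc16a1, Pdk2, Pdha1 and Dlat), when the calls over all genes rose from 8.9% to 15.6%. With all arrays and the replicate block, 3 were lower than in RBPJdel (Slc2a1, Pfkfb3 and Pdha1), with 10.7% of all genes called. The array numbers of N1c_RBPJdel pair with none of the other groups, so the block follows no pairing in this comparison. On N1c_RBPJdel 2, 23 of the 31 genes were above their own mean over all arrays, against 8 on N1c_RBPJdel 1 and 3 on N1c_RBPJdel 3. The median SD of log2 intensity within N1c_RBPJdel was 0.25 for the 31 genes and 0.19 for all genes, and in RBPJdel it was 0.12 and 0.13. In limma's array weights, which fall as an array departs from its group over all genes, N1c_RBPJdel 2 had the lowest weight of the 15, at 0.311. N1c 5 (0.364) and control 5 (0.471) came next, followed by N1c_RBPJdel 3 (0.523).

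The interaction gives the effect of N1c without RBPJ minus its effect with RBPJ, so it sets the response to N1c with RBPJ against that without it, where the latter rests on the group sorted on another machine. Eno2 was the only 1 of the 31 genes called, at 0.68 ± 0.15 with an adjusted p of 0.0438, where 0.84% of all genes were called (0.319% higher and 0.521% lower). It was lost in 12 of 24 alternatives, with adjusted p from 0.0307 to 0.0992. Eno3 had a difference of the same size, 0.78 ± 0.20, with an adjusted p of 0.074, and it was called in 6 of 25 alternatives. Taldo1 (-0.58 ± 0.18, adjusted p 0.163) and Pgk1 (-0.48 ± 0.16, adjusted p 0.182) came next. Only the threshold sets Eno2 apart here, since Eno3 had the larger estimate and missed it, as did Taldo1 and Pgk1.

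**Figure D3:**
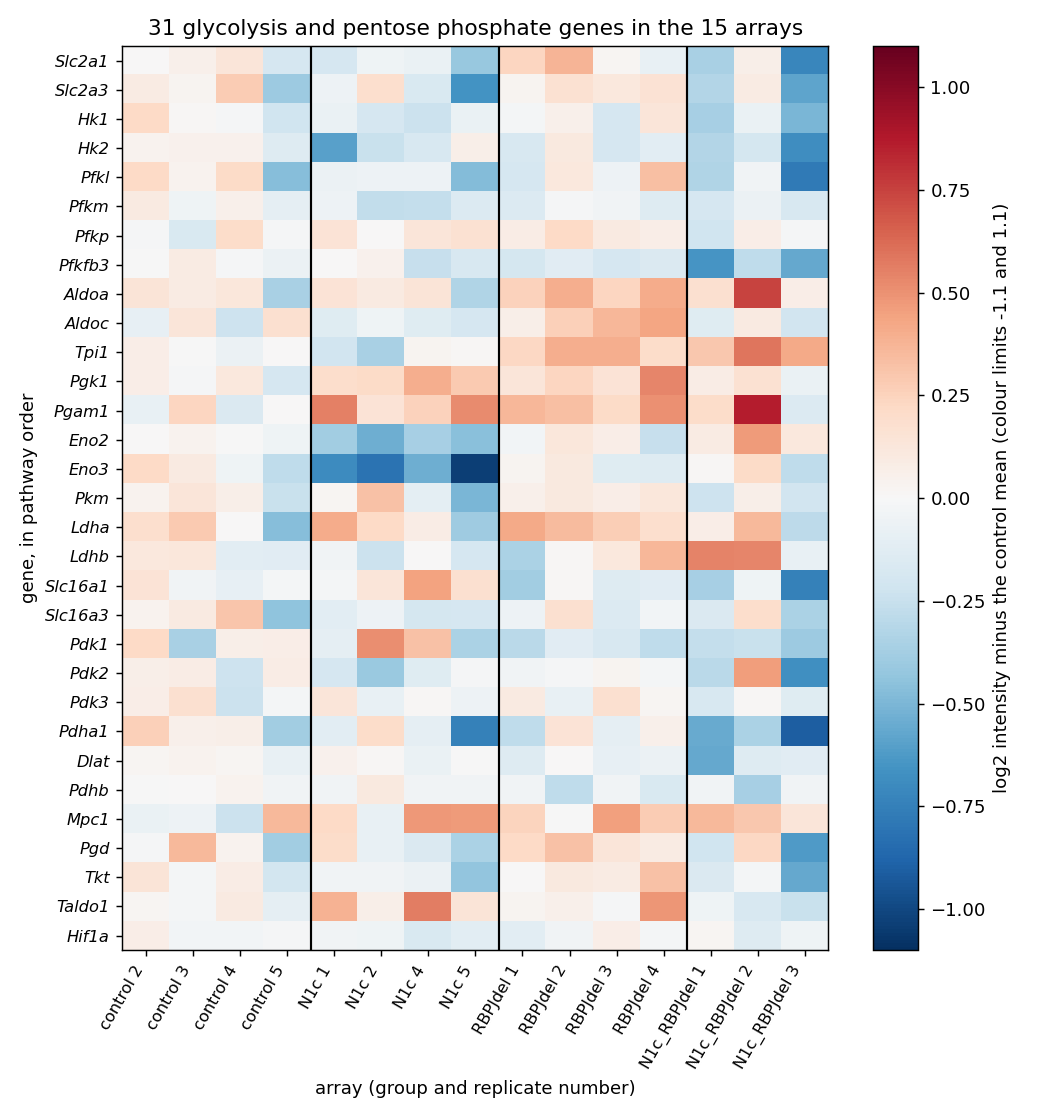
Log2 intensity minus the control mean (colour, limits -1.1 and 1.1) of the 31 genes (rows, in pathway order) on the 15 arrays (columns, by group). The Eno2 and Eno3 rows are blue on all 4 N1c arrays, and control 5, N1c 5 and N1c_RBPJdel 3 are blue in many rows.

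None of the remaining genes was called in any comparison. Slc2a1 and Slc2a3, the main glucose transporters of T cells, ranged from 586 to 1245 and from 672 to 1284 over the 15 arrays. The hexokinases, which trap glucose as glucose 6-phosphate, ranged from 448 to 741 for Hk1 and from 44.5 to 76.9 for Hk2, which is dimmer than most genes. Hk2 had a mean of 71.5 in control and 54.2 in N1c_RBPJdel, without overlap, and its adjusted p was 0.087. Of the phosphofructokinase subunits, Pfkp had means of 511 (control), 552 (N1c), 554 (RBPJdel) and 493 (N1c_RBPJdel), Pfkm lay between 156 and 177 and Pfkl between 179 and 241.

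Pkm, the last enzyme of glycolysis, had means from 1001 to 1164, and no test of it was passed. Ldha, which makes lactate, was 3331, 3568, 2928 and 2111 in control, and its range within control was as wide as between groups (means 2928, 3098, 3620 and 3028). Ldhb, the subunit that favours pyruvate, had a mean of 291 in N1c and 397 in N1c_RBPJdel, and the change of 0.45 ± 0.16 had an adjusted p of 0.0941. Its second cluster had means of 254 and 275.

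The kinases that switch pyruvate dehydrogenase off were not called either. Pdk1 had means of 507 and 542 in control and N1c, and of 436 and 412 in RBPJdel and N1c_RBPJdel. All 4 means lay between 287 and 325 for Pdk2 and between 438 and 487 for Pdk3. Pdhb, the beta subunit of the complex, carried the identical value 201.1 on 8 arrays, as 2.8% of genes shared a value on at least 5 arrays, so its spread is not informative. Mpc1, a subunit of the mitochondrial pyruvate carrier, had means from 1002 to 1210.

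In the pentose phosphate branch, Pgd, which yields NADPH and ribulose 5-phosphate, ranged from 336 to 663 and Tkt, the transketolase, from 283 to 523. Tkt had a mean of 458 in RBPJdel and 352 in N1c_RBPJdel, and these groups did not overlap. Hif1a, the oxygen-regulated activator of many of these genes, had means of 2369 (control), 2220 (N1c), 2325 (RBPJdel) and 2283 (N1c_RBPJdel), with changes between -0.09 and 0.07 in all 6 tests. The amount and activity of the protein were not measured.

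Other genes of the pathway, taken as a list of 35 of which 30 were measured, gave few calls. Gpd2, the mitochondrial glycerol 3-phosphate dehydrogenase that hands electrons of cytosolic NADH to the respiratory chain, was the 1 called in N1c against control, from 279 to 185 (-0.60 ± 0.11, adjusted p 0.00569). Its mean was 179 in N1c_RBPJdel, lower than in control by 0.64 on the log2 scale (-0.64, adjusted p 0.00592) and than in RBPJdel (-0.50, adjusted p 0.0383), while its interaction was 0.10. Gpd2 was thus low in both groups with N1c, with and without RBPJ. Its call in N1c was lost without the arrays numbered 5, with an adjusted p of 0.0611, and that against RBPJdel in 12 of 26 alternatives, while that against control in N1c_RBPJdel held in all 26.

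In N1c_RBPJdel against N1c, Pdp1, a phosphatase that turns pyruvate dehydrogenase on, was higher by 0.45 (adjusted p 0.00814), and Rpia, the ribose 5-phosphate isomerase, was lower (-0.50, adjusted p 0.0172). Pdp2, a second such phosphatase, was lower in N1c_RBPJdel than in control (-0.60, adjusted p 0.0346), a call lost in 7 of 26 alternatives. In RBPJdel against control 0 of the 30 were called by limma, and 2 had an unadjusted p under 0.05.

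Of 21 measured genes of the tricarboxylic acid cycle and its side reactions, limma called 0 in N1c and 0 in RBPJdel against control. At an unadjusted p under 0.05, 4 and 0 passed. In N1c_RBPJdel against N1c, where 4.65% of all genes were called lower, 3 of the 21 were. These were Me2, the mitochondrial malic enzyme, at -0.49 (adjusted p 0.00676), the transaminase Got1 at -0.48 (0.0308) and Dlst, a subunit of the oxoglutarate dehydrogenase complex, at -0.32 (0.0322). Among 26 alternatives the call of Me2 was lost in 1, that of Dlst in 7 and that of Got1 in 9. Against control, where 5.12% of all genes were called lower, the 3 lower genes were Me2, Suclg2 and Dlst. Their calls were lost in 2, 6 and 11 of 26 alternatives. None was higher. By its number the Suclg2 cluster lies among those of chromosome X, whereas the gene is on chromosome 6. Its value may therefore come from a near-identical copy.

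Of 25 measured regulators of glycolysis, 1 was higher and 1 lower in N1c (0.937% and 0.714% of all genes). Epas1, which encodes the Hif1a relative HIF-2 alpha, rose from 111 to 230 (1.05 ± 0.15, adjusted p 0.000502). In N1c_RBPJdel it was at 105, a change from N1c of -1.13 with an adjusted p of 0.00038, and both calls remained in all alternatives. Myc, a known activator of glycolytic genes in T cells, fell from 1631 to 1121 (-0.54 ± 0.13, adjusted p 0.0496). The Myc call was lost in 13 of 27 alternatives, among them each of the N1c arrays left out. In N1c_RBPJdel 4 regulators were lower than in N1c (4.65% of all genes) and 4 lower than in control (5.12% of all genes). Foxo1, Hif1an and Rictor were among both. Against N1c these 3 calls were lost in 7, 3 and 6 of 26 alternatives. Against control that of Foxo1 was kept in all 26, and those of Hif1an, Rictor and Prkaa1, the fourth gene, were lost in 1, 4 and 6. Foxo1 had means of 1981 in control and 1294 in N1c_RBPJdel (-0.61, adjusted p 0.00529).

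The 15 genes of the hypoxia response outside glycolysis gave 2 lower genes in N1c (0.714% of all genes), Ndrg1 and Bnip3. Ndrg1 went from 419 to 225 (-0.90 ± 0.17, adjusted p 0.00655) and stood at 519 in RBPJdel and 430 in N1c_RBPJdel. Its change from N1c to N1c_RBPJdel was 0.94 with an adjusted p of 0.00466. Bnip3, a mitochondrial protein of mitophagy, went from 124 to 70.8 in N1c (-0.81 ± 0.17, adjusted p 0.0133) and was 166 in N1c_RBPJdel (change from N1c 1.23, adjusted p 0.000451). The brightest Bnip3 cluster lies among those of another chromosome, and the cluster of its own chromosome gave -0.32 with an adjusted p of 0.64 in N1c and 0.88 with 0.00423 from N1c to N1c_RBPJdel. Ndrg1, like Eno3, was lowest in N1c and overlapped with control in N1c_RBPJdel.

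Cell cycle genes and markers of other cells moved with some of these comparisons. Of 32 cell cycle genes, 31 were above 0 by estimate in N1c against control (median 0.46, 2 called) and all 32 in RBPJdel (median 0.34, 0 called by limma, 9 at an unadjusted p under 0.05). In N1c_RBPJdel against N1c, where 4.65% of all genes were called lower, 10 of the 32 were (median -0.58). Their summed intensity was 7019 to 9345 (control), 9093 to 12617 (N1c), 7786 to 11347 (RBPJdel) and 6747 to 8294 (N1c_RBPJdel). The part of the cell cycle genes in the results for the enolases, Taldo1 and Slc16a1 was not tested.

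Markers of other cells were called by limma in comparisons with N1c_RBPJdel. In N1c and in RBPJdel against control 0 of these 43 were called, and 2 and 3 had an unadjusted p under 0.05. In N1c_RBPJdel against N1c, 4.58% of all genes were called higher and 4.65% lower. There, 3 of 7 B cell, 3 of 9 neutrophil, 1 of 7 myeloid and 1 of 7 CD8 T and NK cell markers were higher. Of 7 erythroid markers 2 were higher and 1 lower. B cell marker sums were 603 to 676 (control), 557 to 609 (N1c), 684 to 809 (RBPJdel) and 677 to 994 (N1c_RBPJdel). The defining B cell marker Cd79a was dim, at 33.1 in control and 58.6 in N1c_RBPJdel. Neutrophil sums were 425 to 484, 408 to 533, 450 to 519 and 577 to 662 in the same order. Their part in the higher Tpi1 and the lower Pfkfb3 of N1c_RBPJdel was not tested.

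The arrays themselves shifted the 31 genes as a body. Of the 31, 23, 23, 20 and 10 were above their own all-array mean on control 2, 3, 4 and 5, and 19, 14, 12 and 11 on N1c 1, 2, 4 and 5. On RBPJdel 1, 2, 3 and 4 the counts were 19, 24, 21 and 26. The sums of the 31 intensities were 17820 to 21505 (control), 17638 to 21302 (N1c), 21586 to 22625 (RBPJdel) and 17097 to 23038 (N1c_RBPJdel). RBPJdel was the most even group, and its lowest array was above the highest of control and of N1c. This sum rests on the few brightest genes, such as Ldha, Hif1a and Aldoa.

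**Figure D4:**
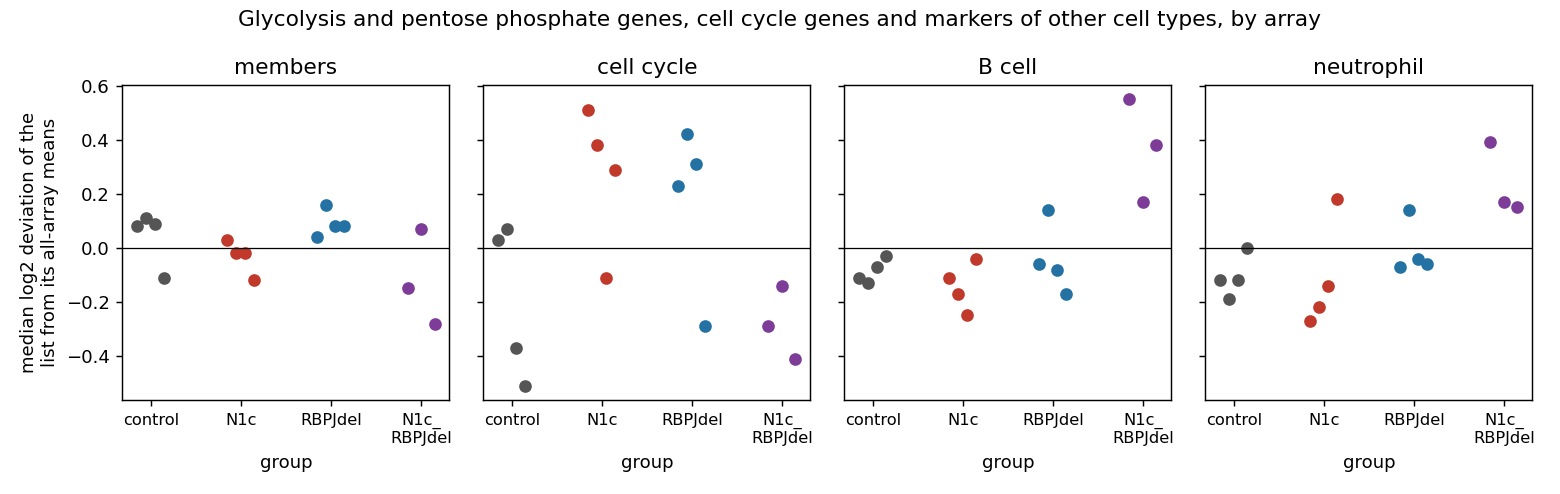
Median log2 deviation of each list from its all-array means (y axis) on every array, by group (x axis), for the 31 genes, cell cycle genes, B cell markers and neutrophil markers. The 31 genes lie between -0.28 and 0.16, and B cell and neutrophil markers are above 0 on all 3 N1c_RBPJdel arrays.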

How the data were processed

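RNA of sorted Treg was measured on 15 arrays in 4 groups taken from the sample titles. The authors deposited 1 table of linear intensities for 24922 transcript clusters, which the submitters' processing notes link to RMA and Affymetrix Power Tools. RMA corrects background and makes the arrays' distributions alike. The sources used here give no tool version, array build or annotation release. RMA also leaves some values tied.

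From these intensities log2 was taken with no pseudocount (values 5.61 to 18029.7). A platform table named 1 gene for 21425 clusters, several for 1399 and none for 2098, and the brightest single-gene cluster per gene gave 19752 genes. Of the single-gene clusters, 21347 matched RefSeq GRCm38.p6 by Entrez number. In this way 97.0% of clusters had most of their 40 nearest numbers on the chromosome of their gene, which is the check behind the clusters called uncertain. Groups were compared with limma 3.58.1 in R 4.3.3, with 1 mean per group, all 15 arrays, 11 residual and 6.15 prior degrees of freedom, and Benjamini-Hochberg adjustment over all 19752 genes at 0.05. The scripts were tested on simulated data.

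The 31 genes and the other lists were chosen with earlier results of these data known, so no list is independent evidence. Of the 31 genes, those past the threshold, or the 3 with the smallest p where fewer passed, are given in full. From other lists up to 4 genes past the threshold per comparison may be named. Between N1c and control, deviations from the group means correlated at 0.417, 0.341 and 0.497 on arrays numbered 2, 4 and 5, which suffices to pair them. Other groups did not meet this on all shared numbers, although RBPJdel 4 correlated at 0.457 with N1c 4 and at 0.417 with control 4. On the numbers 1 and 2 RBPJdel gave 0.111 and 0.0815 with N1c. On the numbers 2 and 3 it gave 0.166 and 0.0711 with control. The fit reported does not use the pairing. The pairing comes from the numbers in the titles. Alternatives were other normalizations, cluster choice, a filter on dim genes, array weights, the replicate block, fits of only the groups compared and leaving out arrays. Precision is limited by the number of arrays.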

Additional observations from a re-analysis of the deposited data

Results flagged for a closer look

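Among the 31 genes, 10 of 93 groups of 4 arrays (10.8%) held an array set apart from the others by its gap relative to the range. Chance gives about 1 in 20 for independent groups, but these groups share the same arrays. The share over all genes was not counted, so no excess in the 31 genes can be read from this. Control 5 was set apart for Hk2 at 64.9 (others 73.4 to 74.0), for Aldoa at 1313 (others 1793 to 1853) and for Dlat at 299 (others 320 to 324). N1c 5 was set apart for Pfkl at 167 (others 223 to 224), for Aldoa at 1340 (others 1798 to 1862) and for Tkt at 309 (others 399 to 407). These 6 of the 10 lie on the arrays numbered 5, and all are low. The rest were Pfkp in RBPJdel 2 at 594 (others 538 to 546), Pdk2 in control 4 at 279 (others 341 to 344), Taldo1 in RBPJdel 4 at 492 (others 349 to 365) and Pdhb in N1c 2 at 222, where the other values are tied at 201. Eno2 passed the threshold for the interaction, at 0.68 in the limma fit. This call was lost in 12 of 24 alternatives. The response without RBPJ rests on the group sorted on another machine, so sorter and genotype cannot be told apart in it.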

How the results depend on the processing

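No alternative reversed a called direction. Between RBPJdel and control 0 of the 31 genes were called under all 26 alternatives. Between N1c and control the 2 calls became 1 among genes brighter than the median gene (which drops Eno2), with the replicate block over all groups, with the block in N1c and control alone, and without the arrays numbered 5. The share of all genes called, 1.65% in the fit reported, was 3.32%, 2.5%, 1.96% and 1.25% in these settings, in the same order. On leaving out single arrays the calls stood at 1 to 2 (1.1% to 1.94% of all genes). Between N1c_RBPJdel and N1c the 6 calls became 2 when only the groups compared were fitted (2.84% of all genes called, from 9.23%). They became 3 to 8 on leaving out single arrays (4.57% to 15.5% of all genes). Between N1c_RBPJdel and control the 2 calls became 0 in the fit of the groups compared (2.06% of all genes called, from 8.9%). They became 4 with the block (19.1%), 6 without the arrays numbered 5 (14.1%) and 1 to 8 on leaving out single arrays (2.68% to 15.6%). In this comparison the split of 1 higher and 1 lower became 1 and 2 under quantile and 2 and 1 under cyclic loess normalization. Between N1c_RBPJdel and RBPJdel the 0 calls became 3 with the block (10.7% of all genes called, from 2.29%). They became 1 without the arrays numbered 5 (5.31%) and 0 to 7 on leaving out single arrays (0.385% to 9.57%). For the interaction 0.84% of all genes were called in the fit reported. The 1 call became 2 under quantile normalization (0.957%), cyclic loess (0.82%), array weights (1.3%) and the block (3.2%). It became 0 among genes brighter than the median gene (1.2%) and without the arrays numbered 5 (0.638%). On leaving out single arrays there were 0 to 2 calls (0.511% to 2.42%). Over all genes, N1c against control gave 326 calls in the fit reported, 733 with array weights and 494 with the block. Fitting fewer arrays leaves fewer degrees of freedom, and the cause of the other shifts was not tested. Added after seeing the data were the cluster of the gene's own chromosome, leaving out the arrays numbered 5 and the block in N1c and control alone. Between N1c and control the block changed the call of Eno2 and of no other gene named here. Array numbers of N1c_RBPJdel pair with none of the other groups. No shift of scale moved the median of all genes by over 0.1, but estimates of the 31 genes changed sign. Under quantile or cyclic loess normalization those above 0 went from 10 to 18 for N1c_RBPJdel against N1c. Against control they went from 8 to 13.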
